A study of Mus musculus with 98 samples.

Results

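The sites described here are places in the mouse genome where STAT5 peaks were called in both STAT5 libraries and no p300 peak was called in either p300 library. They were chosen as peaks of the STAT5 replicate 1 list that overlapped by at least 1 base a peak of the STAT5 replicate 2 list and overlapped no peak of either p300 list. Of the 26477 peaks in the STAT5 replicate 1 list, 11214 (42.4%) were shared with replicate 2 in this way. Of those shared sites, 3406 (30.4%, Wilson 95% interval 29.5% to 31.2%) carried no p300 peak, and 7808 (69.6%) carried one in at least 1 list. That interval covers counting error only and treats sites as independent, which they are not. Under other p300 rules the share ran from 25.5%, with p300 within 1000 bases counted, to 66.8%, with p300 needed in both lists.

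The series holds 98 mouse CD4+ T cell samples, 88 of RNA and 10 of chromatin, from a study of gain and loss of STAT5. The 4 chromatin immunoprecipitation sequencing (ChIP-seq) peak lists used here came from 2 STAT5 and 2 p300 libraries. All 4 libraries were from wild-type C57BL/6 effector CD4+ T cells, sorted as naive cells from spleens and peripheral lymph nodes that were pooled, stimulated with antibodies to CD3 and CD28, and cultured for 5 days in vitro with IL-2. The STAT5 immunoprecipitation used antibodies to STAT5A and STAT5B together, per the labels, whereas the directories recorded in the file headers name STAT5b alone. There was no STAT5-deficient or cytokine-free ChIP-seq sample to set beside these lists, and the labels do not say whether the 2 replicates came from separate animals or cultures. Peak lists hold no expression values, so the cell type could not be checked against its markers.

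STAT5A and STAT5B are closely related transcription factors that become phosphorylated when IL-2 binds its receptor on T cells, enter the nucleus and bind DNA at short palindromic elements. p300 is a transcriptional coactivator and histone acetyltransferase that binds no DNA sequence of its own. It is brought to DNA by transcription factors, and it is widely used as a mark of active enhancers. A STAT5 site without a p300 peak is thus a place where the STAT5 library passed the peak caller's thresholds and the p300 libraries did not. A peak that was not called does not show that p300 was absent.

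Depth and thresholds differed between the libraries. The headers give 16.2 M tags (aligned reads) for STAT5 replicate 1 and 6.45 M for replicate 2, with 16.7% and 16.4% of them inside peaks. For p300 they give 18.6 and 17.0 M tags, with 3.83% of them inside 10716 peaks in replicate 1 and 8.09% inside 17762 peaks in replicate 2. The 2 libraries of the same replicate number shared their input library and their processing directory in the headers, so STAT5 and p300 lists of the same number were not made independently of each other. Heights are given in the replicate 2 lists. Signal below means the normalised tag count of the STAT5 replicate 2 peak, in tags per 10 M sequenced tags. For replicate 1, only the row of a peak in its list was at hand. The list does not state its sort, but its rows ran from wide to narrow peaks (Spearman rho across peaks -0.92), as did the replicate 2 list (-0.88), which was sorted by falling signal. Since heights come from 1 library, differences in signal have no replicate check and no test, and the replicate 1 row is given beside them. That row follows the width of the replicate 1 peak. A wider peak has more room to meet p300 by 1 base, so the row is not independent of the rule.

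Which p300 list carried a peak depended on the replicate. Besides the 3406 sites with no p300 peak, 1640 shared sites (14.6%) had a p300 peak in replicate 1 alone, 2444 (21.8%) in replicate 2 alone and 3724 (33.2%) in both. With replicate 2 as the only p300 list, 45.0% of shared sites would lack p300, and with replicate 1 as the only one 52.2% would. Without the STAT5 replicate 2 list, that is over all replicate 1 peaks, 54.6% lacked p300 in either list. When p300 was required in both lists, 66.8% of shared sites lacked it. The share of 30.4% is therefore the share that passed neither list, and it more than doubles under the strictest reading.

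The sites without p300 had less STAT5 signal than the sites with it. Their median signal was 43.4 tags per 10 M, with quartiles of 31.0 and 69.8 and a range of 20.2 to 806.7. Sites with a p300 peak had a median of 79.9, so the ratio of the medians was 0.543. The median rose from 54.3 at sites with p300 in replicate 1 alone to 76.0 with p300 in replicate 2 alone and 102.4 with p300 in both. The classes overlapped widely, and even the lower quartile of the sites with p300 in both lists, 54.3, lay below the upper quartile of the sites without it.

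In the replicate 1 list, sites without p300 stood at a median of 39.3% of the way down from the top, against 23.5% for all sites with p300. Sites with p300 in replicate 1 alone stood higher, at 10.9%, and sites with p300 in both lists at 17.3%. Sites with p300 in replicate 2 alone stood lower than the sites without p300, at 46.2%. The order of the 2 single-list classes was thus opposite in the 2 measures. In each STAT5 library, the class with p300 in the same-numbered library stood above the class with p300 in the other. The part of the shared input and processing in this order was not tested.

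**Figure D1:**
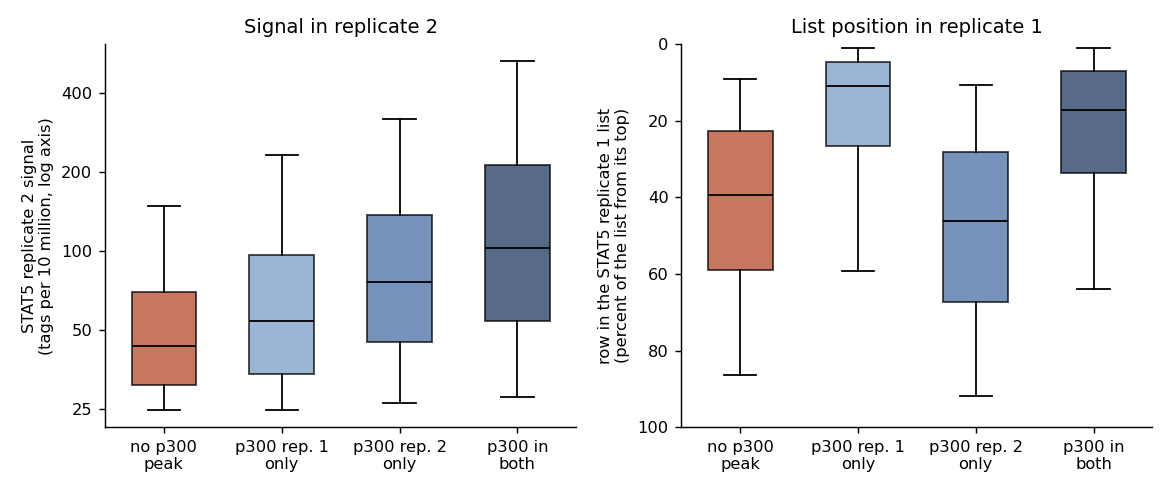
STAT5 replicate 2 signal (left, tags per 10 M on a log axis) and row in the STAT5 replicate 1 list (right, percent of the list from its top, axis inverted) for shared sites grouped by p300 peaks; boxes span the quartiles with the median as a line, and whiskers run from the 5th to the 95th percentile. Sites without p300 have the lowest median signal, 43.4, while in the replicate 1 list they stand above the sites with p300 in replicate 2 alone (39.3% against 46.2%).

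The difference was smaller in signal per 100 bases and in fold over input. It was larger when replicate 2 peaks were limited to a fold over input of at least 8, where the ratio of median signals was 0.388. Sites without p300 were narrower, with a median width of 287 against 413 bases in replicate 1 and 220 against 324 bases in replicate 2. The replicate 1 width is not independent of the rule, since a wider replicate 1 peak has more room to meet p300. The narrowest width the caller gives was held by 35.1% of them in replicate 2, against 14.1% of the sites with p300. Signal per 100 bases was 17.8 at sites without p300 and 22.4 at sites with it, a ratio of 0.795. Fold over input, which the peak caller computes from the tags of STAT5 and of the scaled input in the same region, had a median of 7.19 (quartiles 3.85 and 19.4) at sites without p300 and 7.75 at sites with it, a ratio of 0.928. Sites with p300 in replicate 2 alone had a lower median fold, 6.93, than the sites without p300. The direction for fold depended on the p300 list. By p300 replicate 1 alone the median was 7.04 where p300 was absent and 8.22 where it was present. By p300 replicate 2 alone it was 7.995 where p300 was absent and 7.48 where it was present.

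The spread of fold over input was wide at the sites without p300. A fold of at least 8 was reached by 47.3% of them and by 48.7% of the sites with p300. A fold under 3 was seen at 319 of them (9.37%) and at 280 sites with p300 (3.59%). Scaled input tags had a median of 3.9 at sites without p300 and 6.8 at sites with it. At 177 sites without p300 (5.20%) the input stood at its lowest steps, 0.2 or 0.3 scaled tags, against 59 sites with p300 (0.756%). Fold values there rest on almost no input reads. The median site without p300 held 28 STAT5 tags in replicate 2 against 51.5 for a site with p300. Counting error alone therefore limits what the signal of one such site can show.

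Ranking all shared sites by signal and dividing them into 10 equal groups gave a steady fall in the share without p300. That share was 50.1% and 49.9% in the 2 groups with the lowest signal, 36.0% in the 5th group, 17.6% in the 8th and 4.01% in the group with the highest signal. The share lacking p300 in replicate 1 fell from 61.7% to 24.9% over the same groups, and the share lacking p300 in replicate 2 fell from 70.9% to 9.98%. Each p300 list taken alone thus gave the same direction with the replicate 2 signal. Signal was itself tied to width, since the replicate 2 list, sorted by falling signal, ran from wide to narrow peaks. The p300 replicate 2 library also shared its input with the library that gave the signal. How much of either fall came from width or from the shared input was not tested.

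Ranking by the replicate 1 row gave a steep rise down the list with p300 replicate 1 and none as clear with p300 replicate 2. The share without p300 was 3.74% in the 10% of shared sites nearest the top of the list, 13.6% in the next group and 40.8% in the last. How much of this rise came from the width of the replicate 1 peaks was not tested. The share lacking p300 in replicate 1 ran from 6.06% to 86.3%. The share lacking p300 in replicate 2 lay between 38.7% and 49.9% in all 10 groups. The row and the signal were themselves only loosely related across the shared sites (Spearman rho -0.435), and across the sites without p300 rho was -0.352. These coefficients describe sites within one pair of libraries and carry no p.

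**Figure D2:**
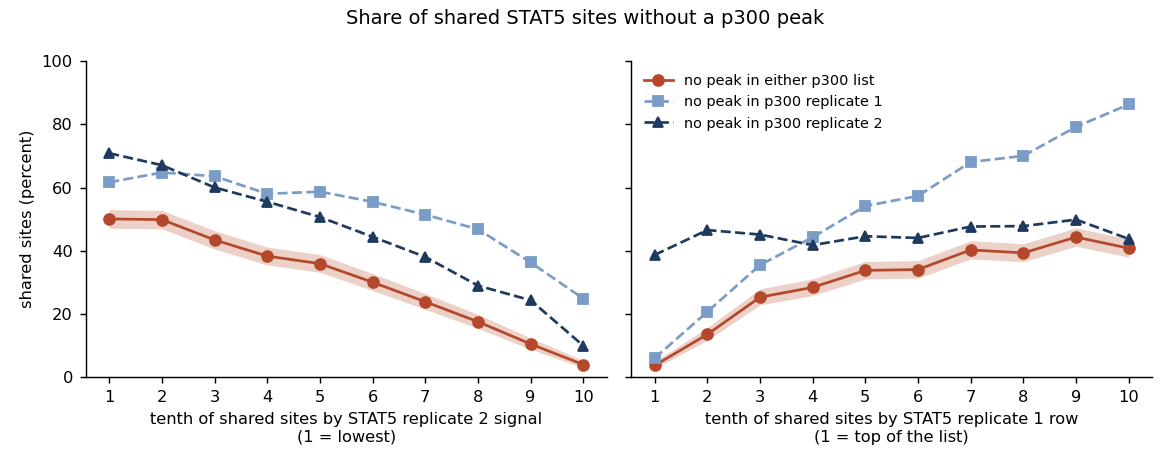
Percent of shared STAT5 sites without a p300 peak in 10 equal groups ranked by STAT5 replicate 2 signal (left, 1 is lowest) or by row in the STAT5 replicate 1 list (right, 1 is the top), with a band for the Wilson 95% interval on the line for neither p300 list. The band covers counting error only. By signal the share falls from 50.1% to 4.01%, whereas by replicate 1 row the line for p300 replicate 2 stays between 38.7% and 49.9%.

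STAT5 peaks without p300 were less often shared between the STAT5 libraries when the replicate 1 list was the starting point. Of 14462 replicate 1 peaks without p300, 23.6% met a replicate 2 peak, against 65.0% of the 12015 with p300. In the top 20% of rows these shares were 71.3% and 81.5%, and in the bottom 20% they were 6.43% and 43.4%. Starting from the replicate 2 list, the gap almost closed, with 55.6% of 6308 peaks without p300 and 60.3% of 13012 with p300 meeting a replicate 1 peak. Within each of 5 equal ranges of replicate 2 rows the order was turned round, with 86.8% against 84.0% in the top 20% and 39.5% against 37.8% in the bottom 20%. Peaks of STAT5 replicate 1 that replicate 2 did not share lacked p300 in 72.4% of 15263 cases, and 20.9% met p300 in replicate 1 alone against 3.36% in replicate 2 alone. Peaks of STAT5 replicate 2 that replicate 1 did not share lacked p300 in 35.2% of 7963 cases, and 62.1% met p300 in replicate 2 alone against 0.741% in replicate 1 alone. STAT5 peaks seen in 1 library therefore met p300 far more often in the library of the same number than in the other. The shared sites described here leave such peaks out.

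The nearest p300 peak of either list lay at a median of 13.5 kb from a site without p300, with quartiles of 2.58 and 41.5 kb. The 352 sites (10.3%) within 500 bases of a p300 peak lie beside it rather than apart from it. Within 1 kb there were 548 sites (16.1%), and within 10 kb 1495 (43.9%). More than 100 kb away were 359 sites (10.5%), and more than 1 Mb away were 14 (0.411%). To the nearest peak of the p300 replicate 1 list alone the median distance was 36.4 kb, and to that of the larger replicate 2 list it was 20.6 kb. With the p300 replicate 2 list left out, the sites lacking p300 numbered 5850 and their median distance was 29.1 kb.

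**Figure D3:**
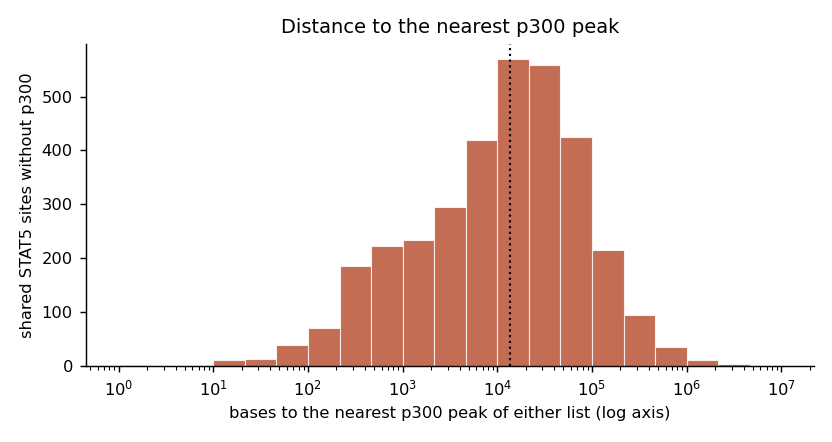
Number of shared STAT5 sites without p300 by distance in bases to the nearest p300 peak of either list (log axis); the dotted line marks the median, 13.5 kb. Most sites lie between 1 kb and 100 kb from a p300 peak, with 352 within 500 bases and 359 beyond 100 kb.

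STAT5 signal did not rise or fall steadily with that distance. Median signal was 47.3 within 500 bases, 38.8 from there to 1 kb, 41.9 from 1 to 10 kb, 45.8 from 10 to 100 kb and 41.9 beyond 100 kb. Median fold over input was lowest nearest to p300, 4.84 within 500 bases, where the median scaled input was 5.8 tags. It was 6.55 from there to 1 kb, with an input of 4.05, and 9.24 from 1 to 10 kb, with an input of 2.9. From 10 to 100 kb, which held 1552 sites, it was 6.73 with an input of 4.2, and beyond 100 kb it was 8.77 with an input of 3.2. Fold thus took no steady course over distance beyond its low value next to p300. Some sites within 500 bases had a replicate 2 peak that touched p300, and the bands were not computed without them. The 93 sites with such a peak had a median fold of 4.66 and a median scaled input of 15.6 tags.

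The rule turns on single bases at its edge. The 20 sites without p300 nearest to a p300 peak had gaps of 1 to 29 bases and signals of 23.3 to 178.4, with a median of 79.9. The 20 sites with the smallest overlap with p300 shared 1 to 15 bases with it, and their signals ran from 26.4 to 178.4 with a median of 66.7. The signals on either side of the edge overlapped almost fully. That likeness is partly built in, since signal is that of the replicate 2 peak. Every site whose replicate 2 peak was free of p300 lay at least 17 bases from p300. Sites without p300 at smaller gaps thus took their signal from a replicate 2 peak that touched p300. At 93 of the 3406 sites (2.73%) the replicate 2 STAT5 peak did touch a p300 peak although the replicate 1 peak did not. These had a median signal of 96.2 and a median fold of 4.66. Without them 3313 sites remained, with the median signal still at 43.4.

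Sites without p300 less often had another shared STAT5 site nearby than sites with it. The nearest other shared STAT5 site lay at a median of 26.4 kb, against 10.2 kb for sites with p300. Only shared sites counted as neighbours, and sharing kept 23.6% of replicate 1 peaks without p300 and 65.0% of those with it. Neighbours over the whole replicate 1 list were not counted. Another shared site lay within 10 kb of 1087 sites without p300 (31.9%) and of 3880 with p300 (49.7%). A single replicate 2 peak that met a further replicate 1 peak, which puts a neighbour close by, was behind 47 sites without p300 (1.38%) and 245 with it (3.14%). Distances beyond 100 kb were found for 714 sites without p300 (21.0%) and for 902 with p300 (11.6%). The nearest neighbour was itself without p300 for 35.6% of the sites without p300 and for 24.5% of the sites with it. Over all shared sites it was without p300 for 27.9%, while 30.4% of all shared sites were themselves without p300.

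The difference in spacing was present within each of 4 ranges of signal. Shared sites were divided by signal into 4 equal groups, and the share with another shared site within 10 kb was compared inside each. In the group from 20.2 to 37.2 tags per 10 M it was 34.3% without p300 and 43.2% with it. In the next groups it was 27.8% against 44.9% and 31.5% against 47.1%. Above 124.1 tags per 10 M it was 37.6% against 58.8%. That last group ran up to 2551.8, and signal was not matched inside it. In the 10% of shared sites with most signal, only 4.01% lacked p300. The share with a neighbour was lower without p300 in all 4 groups, although p300 status also varies with width and with the replicate.

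**Figure D4:**
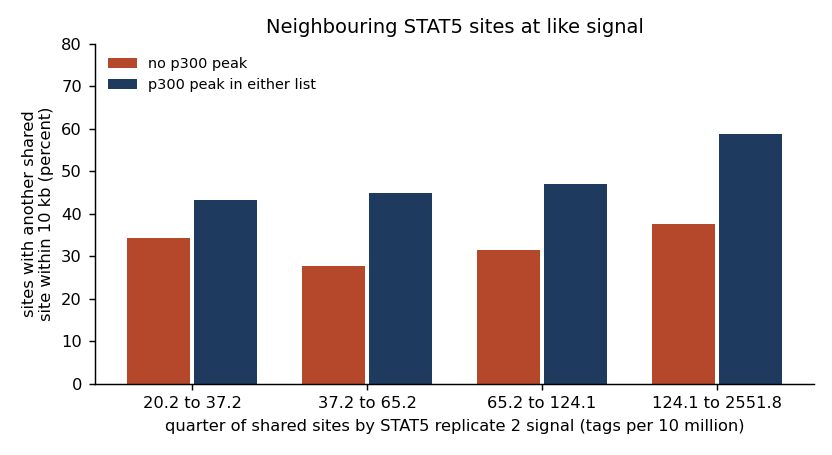
Percent of shared STAT5 sites with another shared site within 10 kb, for sites without a p300 peak and with one in either list, in 4 equal groups of all shared sites by STAT5 replicate 2 signal (tags per 10 M). The bar for sites without p300 is the lower one in all 4 groups, at 34.3% against 43.2% in the lowest and 37.6% against 58.8% in the highest.

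Most sites without p300 stood alone among their kind. Joined wherever neighbours were within 10 kb, 2962 of them were single, and the other 444 (13.0%) formed 205 pairs, 10 runs of 3 and 1 run of 4. Only sites without p300 were joined, and such counts depend on how many sites are joined. No like count was made for sites with p300, so these numbers do not set the class apart. No p300 peak lay inside 167 of the 216 runs, and 49 had one. The run of 4 spanned 8.61 kb at chr13:23516454-23525063 (mm9), with no p300 peak inside it. Its first member, 23516454 to 23516651, had a signal of 51.2 from 33 tags and a fold of 7.82. The second, 23522675 to 23523036, had the highest signal of the run, 82.2 from 53 tags, with a fold of 5.83. The third, 23523265 to 23523561, and the fourth, 23524391 to 23525063, each had a signal of 35.7 from 23 tags, with folds of 4.72 and 5.06. The p300 peak nearest to the run lay 4792 bases beyond its end, so the cluster sits close to p300 without touching it.

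The share without p300 varied between chromosomes. The lowest was 22.5% on chromosome 15 (115 of 512 shared sites, Wilson 95% interval 19.1% to 26.3%), and the highest was 35.4% on the X chromosome (57 of 161, 28.4% to 43.1%). Chromosome 13 had 35.1% (184 of 524) and chromosome 5 had 34.2% (227 of 664). The interval left out the pooled share of 30.4% on 3 of 20 chromosomes. It covers counting error only, and neighbouring sites are not independent. The median signal of the sites without p300 lay between 37.2 and 49.6 on all 20 chromosomes and was below that of the sites with p300 on each of them.

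**Figure D5:**
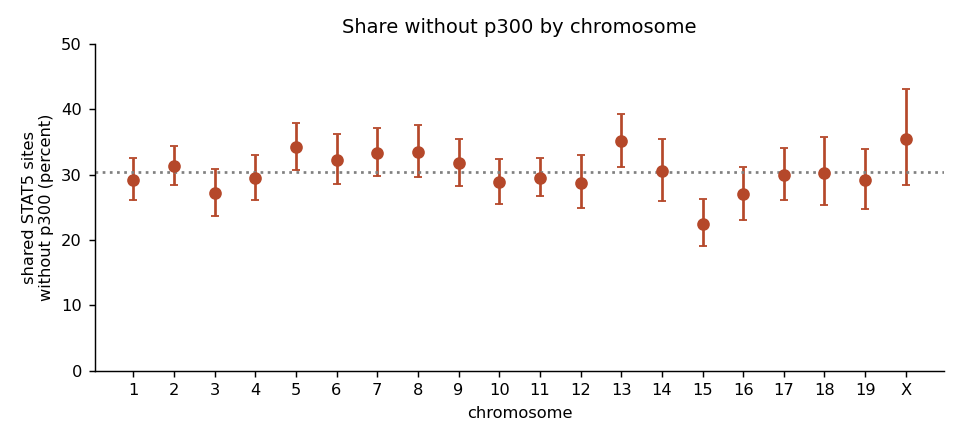
Percent of shared STAT5 sites without p300 on each chromosome, with Wilson 95% intervals as bars; the dotted line is the share over all chromosomes, 30.4%. Chromosome 15 lies lowest at 22.5%, and the interval of the X chromosome, from 28.4% to 43.1%, holds the overall share.

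Individual sites show what these numbers rest on. Coordinates are mm9 with the first base numbered 1, and no mm9 annotation was used, so no gene, exon or intron is given. Tag counts carry exact Poisson 95% intervals, which cover counting error only, since heights come from 1 library. Reads were counted without molecular identifiers.

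The highest signal of all belonged to chr5:123465493-123465650, a peak of 158 bases that is the narrowest width in the replicate 1 list. Its signal of 806.7 came from 520 tags (476 to 567) in a replicate 2 peak of 1725 bases, which also met another replicate 1 peak and touched p300. The nearest p300 peak lay 122 bases away. The signal there is thus that of a wider region, and the narrow replicate 1 peak stood at row 22311 of its list. A replicate 2 peak that met another replicate 1 peak also stood behind chr6:72295105-72295426, with a signal of 539.8 and p300 at 287 bases, and chr2:152652097-152652254, with a signal of 474.7 and p300 at 75 bases. In all 3 the replicate 2 peak touched p300.

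The other 3 of the 6 highest signals came from wide, high-ranking peaks in both STAT5 lists whose replicate 2 peak did not touch p300. The first, chr7:3580914-3582280, was 1367 bases wide and stood at row 307 of the replicate 1 list. Its signal was 525.9, from 339 tags (304 to 377) against 18.5 scaled input tags, a fold of 18.3, and the nearest p300 peak lay 128 kb away. The second, chr5:111081917-111082870, had a signal of 442.1 from 285 tags (253 to 320), a fold of 13.9 and row 511, with p300 at 56.5 kb. The third, chr7:135381270-135382369, had a signal of 431.3 and a fold of 8.40, but a p300 replicate 1 peak lay 379 bases away, so it left the set when p300 within 500 bases was counted.

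Further strong sites were picked after their values were seen, because their replicate 2 peak was free of p300. They were chr1:164478438-164479041, with a signal of 420.4, a fold of 16.7 and p300 at 21.5 kb, and chr6:51220836-51222139, with a signal of 401.8, a fold of 17.4 and p300 at 58.0 kb. At chr11:3093348-3093703 the signal was 415.7 but scaled input reached 78.2 tags, so the fold was 3.43. That site shows how a high signal can stand over a high input.

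Strong STAT5 peaks also occurred far from any p300 peak. Also picked after their values were seen, chr12:89598883-89599559 had a signal of 397.1 from 256 tags (226 to 289), a fold of 20.8 and no p300 peak nearer than 814 kb. The site chr4:86221164-86221825 had a signal of 389.4, a fold of 16.1 and p300 at 137 kb. The site chr16:15862706-15863790 had a signal of 283.9, a fold of 15.2 and p300 at 352 kb. All 3 also stood high in the replicate 1 list, at rows 867, 828 and 598 of 26477. Among the 10% of shared sites with most signal, 45 had no p300 peak, with signals of 252.9 to 806.7. Of these 45, 15 lay within 500 bases of p300, 23 lay beyond 10 kb and 4 beyond 100 kb, and at 13 (28.9%) the replicate 2 peak touched p300. Over all 3406 sites without p300, 352 (10.3%) lay within 500 bases, 1911 (56.1%) beyond 10 kb and 359 (10.5%) beyond 100 kb. At 93 (2.73%) of them the replicate 2 peak touched p300. The 45 strong sites were thus more often close beside p300 than all sites without p300, and not more often far from it.

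The highest folds over input were set by the lowest inputs. At chr1:107695806-107696003 the fold of 375.9 came from 61 tags (46.7 to 78.4) over 0.2 scaled input tags. At chr5:89028412-89028776 it was 345.1 from 112 tags over 0.3, and at chr4:108262822-108263192 it was 329.7 from 107 tags over 0.3. Their signals, 94.6, 173.7 and 166.0, were above the median, and their p300 distances were 33.4, 44.9 and 29.0 kb. Each of these folds rests on less than 1 scaled input tag.

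The sites nearest to p300 were chr1:10027877-10028034, with a gap of 1 base, chr1:184419966-184420123, with a gap of 2 bases, and chr5:34278933-34279267, with a gap of 9 bases. Their signals were 49.6, 100.8 and 99.3 and their folds 5.48, 4.45 and 3.46. In all 3 the replicate 2 STAT5 peak touched p300. The sites farthest from p300 were weak or moderate. The first, chr6:4036894-4037136, had 14 tags (7.65 to 23.5) and a signal of 21.7, with p300 3.76 Mb away. The second, chr6:5248365-5248562, had 16 tags (9.15 to 26.0), with p300 2.55 Mb away, and it was the nearest shared site to the first, at 1211 kb. The third, chr19:50345047-50345244, had 35 tags (24.4 to 48.7), a signal of 54.3 over 1 scaled input tag and p300 at 2.35 Mb.

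The sites named for lying nearest the median signal were chr1:74718911-74719583 and chr13:21272102-21273005. Each had a signal of 43.4 from 28 tags (18.6 to 40.5). Their scaled inputs were 1.3 and 4.9 tags, so their folds were 21.6 and 5.75. Their nearest p300 peaks lay 84.1 and 146 kb away. They were typical in signal alone, since their replicate 1 widths, 673 and 904 bases, were far above the median of 287, their rows, 2069 and 2623, were nearer the top of the list than those of most sites without p300, and both p300 distances lay beyond the upper quartile. Equal signal thus went with unequal folds.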

How the data were processed

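The authors deposited STAT5 and p300 ChIP-seq as lists of peaks called per library on mouse genome mm9, the build named in the submitters' processing notes. Those notes name MACS2, Bowtie2 and bedtools with no version, whereas the lists were written by HOMER findPeaks, per the file headers. The headers record Poisson p-value thresholds of 1e-14 in both replicate 1 lists, 1e-17 for STAT5 replicate 2 and 1e-18 for p300 replicate 2. Against input the p-value threshold was 1e-06 in both replicate 1 lists, 0.001 for STAT5 replicate 2 and 1e-05 for p300 replicate 2. They also record a fold of at least 2 over input and 4 over local background. The narrowest peaks were 158, 174, 156 and 172 bases in the 4 lists. Depth and thresholds both differed between lists, so their numbers of peaks are not directly comparable. In the replicate 2 lists the deposited values are a signal (tags per 10 M), total tag counts, scaled input tags as a signal, a fold ratio over input and a p-value, per the file headers. The deposited score column was not used. Replicate 1 lists hold positions only.

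Starts were brought to one numbering (replicate 2 starts, counted from 1, were lowered by 1) before overlaps were counted. Medians, shares, distances between peak edges and Wilson intervals were computed with Python 3.11.15, NumPy 2.4.6, pandas 2.3.3 and SciPy 1.17.1. The interval code was tested on simulated data, and bedtools 2.31.1 gave the same 3406 sites. No test over regions was made, since sites of 1 library are not replicates. The rule for named sites took the 6 highest signals, the 3 highest folds, the 3 smallest and 3 largest gaps to p300, the 2 sites nearest the median signal and the run with most members, leaving out chromosome 18. The sites, the lists and this rule were chosen with earlier results of these data known. Alternatives changed the overlap rule, the p300 lists, the fold, the peak width and the distances. The RNA-seq tables and the histone and input samples were not used here, and peaks were not linked to genes.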

Additional observations from a re-analysis of the deposited data

How the results depend on the processing

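The share of shared sites without p300, 30.4%, became 31.4% when at least 50% of either peak had to be covered, 42.5% with peak centres within 100 bases, 27.2% and 25.5% when p300 within 500 or 1000 bases counted, 66.8% when p300 was needed in both lists, 38.4% with the 50% of p300 replicate 2 peaks highest in signal, and 34.9% with all peaks set to 200 bases. Leaving out 1 library moved it between 32.7% (STAT5 replicate 1) and 54.6% (STAT5 replicate 2), with 52.2% for p300 replicate 2. The ratio of median signals without and with p300, 0.543, was below 1 in all 17 alternatives: 0.674 with centres within 100 bases, 0.592 with p300 within 1000 bases, 0.530 with both p300 lists needed, 0.388 at a fold of at least 8, 0.528 with the upper 50% of p300 replicate 2 peaks, 0.604 at 200 bases, 0.928 for fold over input, and 0.517 to 0.661 with 1 library left out. Chosen after seeing the data, it was 0.795 per 100 bases and 0.538 where the replicate 2 peak was also free of p300. All of these alternatives used heights from the same STAT5 replicate 2 library. Fold over input was among them only with p300 in either list, and with p300 replicate 2 alone its direction was reversed (7.995 without p300, 7.48 with it). The median distance to p300, 13.5 kb, became 17.6 kb without p300 replicate 1 and 29.1 kb without p300 replicate 2. Sites without p300 and with a shared neighbour, 31.9% at 10 kb, were 23.1% at 5 kb and 48.7% at 25 kb, against 38.7% and 65.8% of sites with p300. With both p300 lists needed, the shares on chromosomes 15 and X became 58.8% and 75.2%. Of 27 named sites, 8 stayed members under all 13 settings. Some of these settings only relax the rule and cannot remove a site, such as p300 needed in both lists or a p300 list left out. Others were settled by how a site was picked. Sites picked for the smallest gaps must leave when p300 within 500 bases counts, and sites picked for large gaps cannot. No like count was made over all sites without p300. Settings with the replicate 2 peak as the unit were not scored for named sites.

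No paired analysis was possible because no result comes from a test between groups. Signal without STAT5 replicate 2 could not be computed, as replicate 1 has no heights, and the alternative on fold over local background was not run, since the lists lack that column. Tag counts, with a median of 28 at a site without p300, limit single sites.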
